A study of Mus musculus with 24 samples.

Results

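The balance between inner cell mass and trophectoderm messages was measured in each of 24 pools of mouse blastocysts, and the 8 pools with the highest balance were compared with the 8 with the lowest, leaving 8 pools between them. The balance was the mean log2 signal of Pou5f1, Nanog, Sox2, Klf2 and Esrrb minus the mean of Cdx2, Gata3, Krt8, Krt18 and Tfap2c. The groups were therefore chosen from measured values, and everything said about these 10 genes is a description without a test. A pool was made of 15 blastocysts frozen at the expanded stage, with 20 for HC6, and 2 ng of its RNA was labelled for one Agilent array with a single dye. The pools come from 6 conditions, HC1 to HC6, with 4 pools each, in a series whose title names bisphenol A and membrane estrogen receptor activation. The labels give neither the treatment behind a code nor the strain, sex or age of the embryos, and no control is named. The high-balance pools were HC6 replicate 3, HC1 replicate 4, HC2 replicate 1, HC3 replicate 4, HC4 replicates 1, 2 and 3, and HC5 replicate 1. The low-balance pools were HC3 replicate 1, HC6 replicate 4, HC5 replicates 2, 3 and 4, HC2 replicate 4, and HC1 replicates 2 and 3.

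An expanded blastocyst has an outer epithelium, the trophectoderm, which pumps fluid into the cavity and goes on to form placental tissue. Inside lies the inner cell mass, which separates into the epiblast, the source of the embryo proper, and the primitive endoderm, the source of the yolk sac lining. Pou5f1, Sox2 and Nanog are transcription factors of the pluripotent cells, and Esrrb and Klf2 are factors of the naive pluripotent state. Cdx2, Gata3 and Tfap2c are transcription factors of the trophectoderm, and Krt8 and Krt18 encode the paired keratins of its cytoskeleton. In RNA from whole blastocysts, fewer cells of a type and less RNA per cell cannot be told apart.

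The 3 probes below are shown because they read genes of both sides of the balance: the pluripotency factors Pou5f1 and Nanog and the keratin gene Krt18. All lie on the plus strand of build mm9, at chr17:35647013-35647072 for Pou5f1, chr6:122663514-122663573 for Nanog and chr15:101862341-101862400 for Krt18. Capitals mark the stop codon where the probe contains it, and the Pou5f1 probe lies wholly before it.
Pou5f1 probe: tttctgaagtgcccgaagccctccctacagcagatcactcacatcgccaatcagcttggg
Nanog probe: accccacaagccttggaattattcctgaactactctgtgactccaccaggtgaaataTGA
Krt18 probe: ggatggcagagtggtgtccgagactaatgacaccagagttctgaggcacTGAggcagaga

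Nanog is a known joint target of the proteins of Pou5f1 and Sox2, so its promoter links 3 of the genes in the balance. The 250 bases before its start in RefSeq, build GRCm38.p6, plus strand, chr6:122707239-122707488, are shown with a composite octamer and Sox element in capitals.
Nanog promoter: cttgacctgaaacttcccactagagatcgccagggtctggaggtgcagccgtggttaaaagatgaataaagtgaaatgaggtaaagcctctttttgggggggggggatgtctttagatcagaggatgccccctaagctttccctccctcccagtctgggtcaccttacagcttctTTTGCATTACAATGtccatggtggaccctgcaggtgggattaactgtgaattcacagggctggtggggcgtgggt
The motif searched on both strands was TTTGCATNACAATG, and it was found in 2 of 32851 promoter windows of this length (0.00609%), both assigned to Nanog. It begins 75 bases before the start of the gene. The match describes these letters and is no measurement of binding.

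The balance ran between -4.13 in HC6 replicate 3 and -5.00 in HC5 replicate 4, a range of 0.87 on the log2 scale. It averaged -4.47 ± 0.15 in the high-balance pools and -4.85 ± 0.07 in the low-balance pools (SD, n = 8 each). The widest gap between neighbouring pools lay at the top, where HC6 replicate 3 stood 0.289 above the next pool. The edges of the groups were close to the pools between them: the eighth and ninth pools differed by 0.00778 and the sixteenth and seventeenth by 0.0300. The inner cell mass genes averaged 2.11 ± 0.11 in high-balance pools and 1.86 ± 0.06 in low-balance pools, a difference of 0.25. The trophectoderm genes averaged 6.58 ± 0.13 in high-balance pools and 6.72 ± 0.07 in low-balance pools, a difference of -0.13. Array scaling cancels within the balance, because the same percentile is subtracted from all 10 genes.

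**Figure D1:**
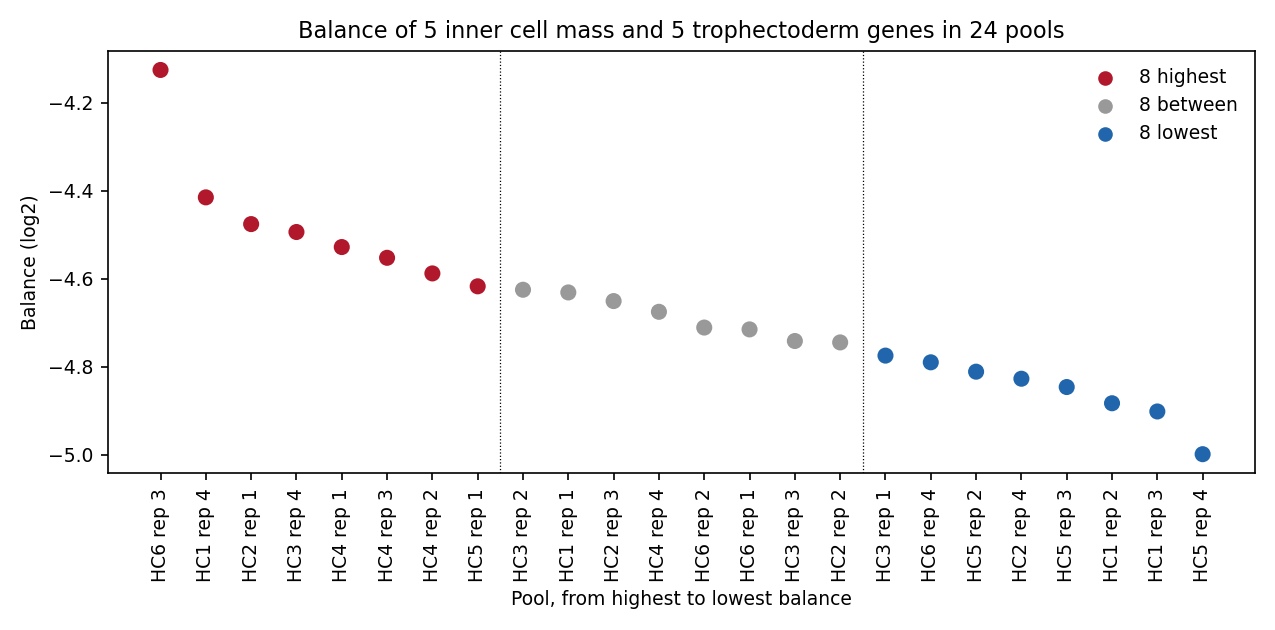
Balance (log2) of each of the 24 pools, ordered from highest to lowest, with the 8 highest, 8 between and 8 lowest pools in separate colours and dotted lines at the group edges. HC6 replicate 3 stands apart at -4.13, while the other 23 pools form an unbroken run down to -5.00.

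No condition had all its pools in a single group, but HC4 and HC5 leaned to opposite sides. HC4 gave 3 high-balance pools and 0 low-balance pools, with a balance of -4.59 ± 0.06, and HC5 gave 1 and 3, with -4.82 ± 0.16 (SD, n = 4 each). HC6 averaged -4.59 ± 0.31, with its 4 pools between -4.13 and -4.79. HC1 averaged -4.71 ± 0.23, HC2 -4.67 ± 0.15 and HC3 -4.66 ± 0.13. Ordered by their means, neighbouring codes differed by less than the larger SD of each pair. HC4 and HC5, which are not neighbours in that order, differed by more than the SD of either. A link between condition and balance was not tested. The 3 slides, which were also the 3 scans, held 3, 2 and 3 high-balance and 2, 2 and 4 low-balance pools.

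Among the inner cell mass genes, Sox2, Klf2, Esrrb and Nanog had the larger differences between the groups. Sox2 had a lowest, median and highest log2 signal of 1.13, 1.44 and 1.80 in high-balance pools and 0.67, 1.15 and 1.40 in low-balance pools, a difference in means of 0.36. Klf2 had 1.99, 2.28 and 2.45 in high-balance pools and 1.74, 1.96 and 2.24 in low-balance pools, a difference of 0.31. Esrrb had 2.79, 2.88 and 2.96 in high-balance pools and 2.48, 2.61 and 2.83 in low-balance pools, a difference of 0.24. For Sox2 and Klf2, 5 of the 8 high-balance pools lay above every low-balance pool, and for Esrrb 6 did. Nanog had a difference of 0.24 as well, with means of 0.72 ± 0.31 in high-balance pools and 0.48 ± 0.29 in low-balance pools, but only 1 high-balance pool lay above every low-balance pool. Pou5f1 averaged 3.21 ± 0.18 in high-balance pools and 3.12 ± 0.33 in low-balance pools, a difference of 0.09. Its highest value, 3.91, was in HC5 replicate 4, the pool of lowest balance, and without that pool the difference was 0.20, beside 0.19 for Nanog.

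Among the trophectoderm genes, the keratins had the larger differences over all 16 pools. Krt8 had 7.75, 7.93 and 8.18 in high-balance pools and 7.92, 8.15 and 8.41 in low-balance pools, a difference of -0.23. Krt18 had 9.50, 9.79 and 10.03 in high-balance pools and 9.64, 9.99 and 10.21 in low-balance pools, a difference of -0.18. The groups overlapped for both keratins. Cdx2 averaged 4.77 ± 0.22 in high-balance pools and 4.89 ± 0.32 in low-balance pools, and its difference of -0.12 was -0.01 without HC5 replicate 4, which held its highest value, 5.65. Gata3 differed by -0.03, by 0.0032 without HC6 replicate 3 and by -0.12 without HC5 replicate 4. Tfap2c differed by -0.10, by -0.04 without HC6 replicate 3 and by -0.14 without HC5 replicate 4. Without HC5 replicate 4 the differences of Krt8 and Krt18 were -0.19 and -0.15, so that Krt18, Tfap2c and Gata3 lay close together.

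**Figure D2:**
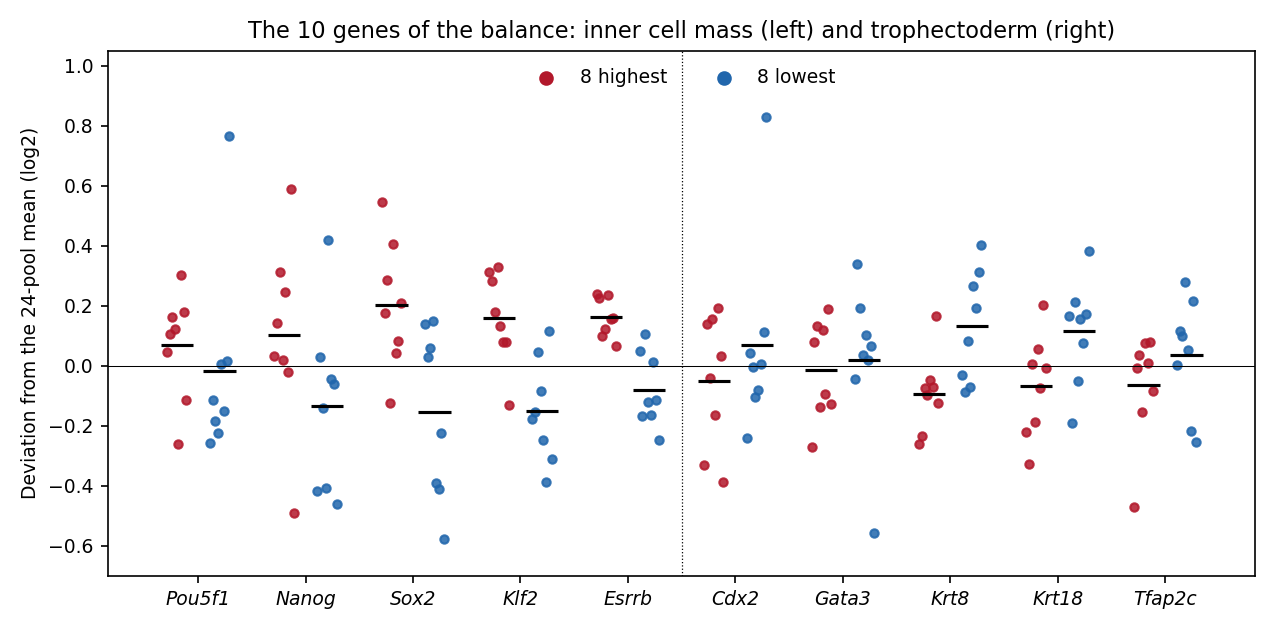
Deviation of each balance gene from its mean over 24 pools (log2), for the 8 highest pools left and the 8 lowest right of each gene name; each dot is a pool and each bar a group mean. The group means lie furthest apart for Sox2, at a difference of 0.36, and one low-balance pool carries the top values of Pou5f1 and Cdx2.

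The 10 genes did not move as 2 opposed sets. Over the 24 pools, 14 of the 25 pairs that join an inner cell mass gene to a trophectoderm gene had a negative Pearson r and 11 a positive one, and without the highest and the lowest pool 12 were negative and 13 positive. Sox2 and Krt8 were the most opposed pair (r = -0.77, and -0.64 without those 2 pools). Pou5f1 and Cdx2, the textbook opposites of the first lineage decision, varied together (r = 0.75, and 0.63 without those 2 pools). Sox2 and Esrrb had r = 0.67, Krt8 and Krt18 had r = 0.79, and Pou5f1 and Sox2 had r = -0.40, and -0.21 without those 2 pools. The pools share array processing and scaling, so these values describe 24 pools and carry no test. The opposition of Sox2 and Esrrb to Krt18 was weak, with r = -0.35 for Sox2 and -0.06 for Esrrb, and without the 2 pools -0.06 and 0.22. Klf2 was more opposed to Krt18, with r = -0.57, and -0.45 without the 2 pools. Within each set of genes, 7 of the 10 pairs had a positive r and 3 a negative one. Without the 2 pools, 7 inner cell mass pairs and 8 trophectoderm pairs were positive. Because Pou5f1 and Cdx2 go against the label of inner cell mass against trophectoderm, the scale is called the balance below.

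**Figure D3:**
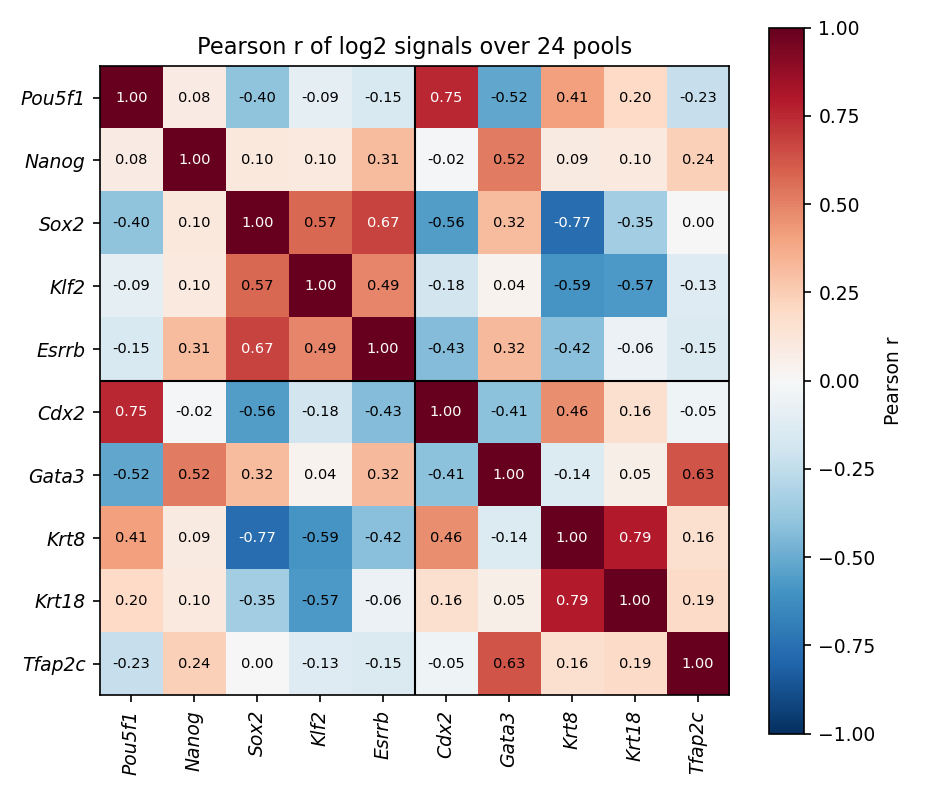
Pearson r between the log2 signals of the 10 balance genes over 24 pools, with black lines between the inner cell mass and the trophectoderm genes. The strongest opposition is Sox2 with Krt8 at -0.77, while Pou5f1 and Cdx2 reach 0.75.

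Outside the 10 genes, no gene passed the test between high-balance and low-balance pools. With limma's moderated test and Benjamini-Hochberg adjustment, 0 of 18438 genes (0%) had an adjusted p under 0.05, and the smallest adjusted p was 0.407. Before adjustment, 814 genes (4.41%) had p under 0.05, of which 441 had higher (2.39%) and 373 lower (2.02%) means in high-balance pools, where 922 would be expected by chance. No other limma setting with the same groups called a gene, except that without the filter on dim probes 4930413E15Rik passed (adjusted p = 0.0466, difference -1.06). The labels do not say that pools came from separate matings, so p-values measure only the spread between these pools. The 95% interval of the difference lay within 2-fold either way for 89.1% of genes and within 1.5-fold for 68.9%. In data simulated for this comparison, the test recovered 74% of genes changed 2-fold and 46% of those changed 1.5-fold. At the smallest change simulated, which was under 1.5-fold, it recovered 20%. Small changes could therefore have gone uncalled.

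Among genes with a symbol that were well above background in all 16 pools compared, the 5 of smallest p in each direction are given as values; some features outside this choice, such as Ano9 (described below), had a smaller p. Morc1, needed in the male germ line, averaged -0.16 ± 0.12 in high-balance pools and -0.58 ± 0.22 in low-balance pools (SD, n = 8 each), a difference of 0.41 ± 0.09 (SE; limma adjusted p = 0.888). Zfp57, which protects the methylation of imprinted regions, had a difference of 0.56 ± 0.15. Slc39a6, a zinc transporter, had 0.30 ± 0.08, Pced1a 0.34 ± 0.08 and Tcf23 0.46 ± 0.12. In all 5 of these genes each high-balance pool lay above the median of the low-balance pools. Such separation goes with choosing genes by small p in these same pools and adds no support. On the other side, Prkag2, a regulatory subunit of AMP-activated kinase, averaged 2.30 ± 0.14 in high-balance pools and 2.74 ± 0.27 in low-balance pools, a difference of -0.44 ± 0.11. Nfe2l1, a transcription factor of proteasome genes, had -0.31 ± 0.09, and Myadm, a membrane protein, -0.31 ± 0.09. Myo10, a myosin of filopodia, had -0.25 ± 0.07 and the keratin gene Krt81 -0.36 ± 0.11. All 10 had an adjusted p of 0.888.

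In 4 genes (0.0217%) the groups did not overlap, 2 with all high-balance pools on top (0.0108%) and 2 with all of them below (0.0108%), and these were named after their values were seen. Ano9 lay between -1.61 and -1.17 in high-balance pools and between -2.86 and -1.66 in low-balance pools (limma adjusted p = 0.407), and was well above background on 20 of the 24 arrays. Vasp, which extends actin filaments at cell junctions, lay between 0.85 and 1.28 in high-balance pools and between 1.37 and 2.71 in low-balance pools. The other two, one in each direction, carry no gene symbol.

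Other inner cell mass genes leaned to the high-balance pools. Of 28 tested, 24 had a higher mean in high-balance pools, where 52.2% of all genes did, and their median difference was 0.15, against 0.01 over all genes, with 0 called. Prdm14, a repressor of differentiation, averaged -0.66 ± 0.40 in high-balance pools and -1.27 ± 0.73 in low-balance pools, a difference of 0.60 ± 0.28 (SE; limma adjusted p = 0.888), and was well above background in 8 and 7 of them. Lefty2, an inhibitor of Nodal, had a difference of 0.38, Klf4 0.16 and Zfp42, a marker of naive pluripotency also called Rex1, 0.11. Morc1, named above with 0.41, is also a member of this list. The 4 members with a lower mean were Fbxo15 (-0.08), Sall4 (-0.08), Dppa5a (-0.03) and Nr5a2 (-0.02). Within slides the median difference of the list was 0.09, 0.06 and 0.22. With groups drawn from Pou5f1 minus Cdx2 it was 0.03. List members vary together, so their count is not a count of separate signals.

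Trophectoderm genes leaned the other way, less evenly. Of 23 tested, 18 had a lower mean in high-balance pools, where 47.8% of all genes did, with a median difference of -0.11 and 0 called. The median was -0.055 without HC6 replicate 3, and within slides it was 0.05, -0.35 and -0.10. Krt7, a keratin of simple epithelia, had a lowest, median and highest signal of 0.59, 1.58 and 2.02 in high-balance pools and 1.73, 2.01 and 2.31 in low-balance pools, a difference of -0.44 ± 0.18 (SE; limma adjusted p = 0.888). The difference was -0.31 without HC6 replicate 3. Dppa1 had a difference of -0.23 and Elf5, a trophoblast stem cell factor, -0.16. Among regulators of the lineage Eomes had a difference of -0.04, Id2 0.02, Tead4, the Hippo pathway factor upstream of Cdx2, 0.13, and Msx2 0.33. Of the list's other transcription factors, Gata2 had -0.20, Klf6 -0.12, Tfap2a -0.11 and Ascl2 0.16. The 8 pools between the groups had the lowest mean list deviation, -0.08 ± 0.11, against 0.00 ± 0.13 in high-balance pools and 0.08 ± 0.16 in low-balance pools.

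Of 20 primitive endoderm genes, 19 had a higher mean in high-balance pools, with a median difference of 0.14 and 0 called. Pdgfra, the receptor that marks this lineage, averaged 1.90 ± 0.16 in high-balance pools and 1.54 ± 0.41 in low-balance pools, a difference of 0.36 ± 0.15 (SE; limma adjusted p = 0.888). Serpinh1, a collagen chaperone, had 0.35, Hnf4a 0.16, Gata4 0.16, Gata6 0.14 and Sox17 0.10. Without HC5 replicate 3 the differences were 0.23 for Pdgfra, 0.039 for Gata4 and 0.014 for Sox17, and without HC5 replicate 4 that of Gata6 was 0.064. The members varied widely within both groups: the list's mean deviation lay between -0.24 and 0.49 in high-balance pools and between -0.69 and 0.36 in low-balance pools. The median difference was 0.07 without HC5 replicate 3 and 0.21 without HC1 replicate 3. Within slides it was 0.24, -0.20 and 0.23, and in the trend over all 24 pools it was 0.01.

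**Figure D4:**
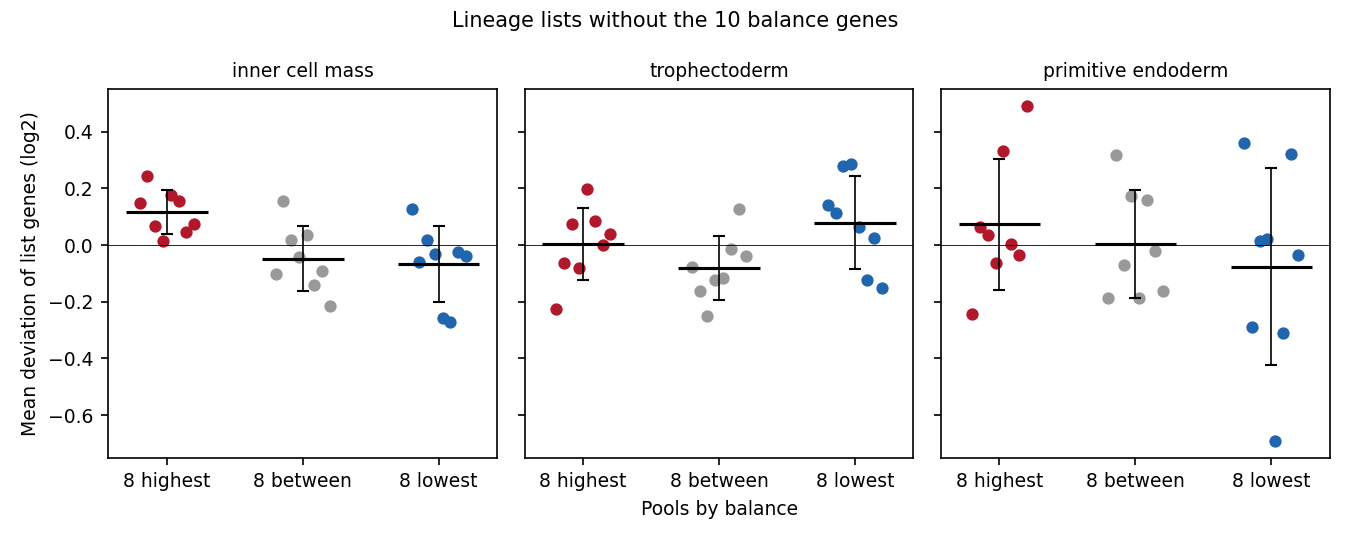
Mean deviation (log2) of the genes of 3 lineage lists, without the 10 balance genes, in each pool of the 8 highest, 8 between and 8 lowest; bars are means and whiskers SD. The inner cell mass list averages 0.11 in the highest and -0.07 in the lowest pools, and the groups overlap in all 3 lists.

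The pathway lists stayed nearer to the median of all genes. Of FGF and ERK signalling genes 10 of 18 had a higher mean in high-balance pools (median 0.04), of Hippo pathway genes 10 of 19 (0.06), and of polarity, junction and cavitation genes 8 of 21 (-0.04). The cell cycle list had 16 of 21 (0.07), p53 targets 8 of 14 (0.03), glycolysis and glucose transport 6 of 16 (-0.02), cholesterol synthesis 13 of 20 (0.05), heat shock 7 of 10 (0.05) and the DNA methylation machinery 4 of 8 (-0.02). None held a called gene. These medians are small and several turn on leaving out 1 pool, for some lists with any of several pools; at the furthest, Hippo was -0.020 without HC4 replicate 1, p53 targets -0.0088 without HC5 replicate 4, glycolysis 0.012 without HC6 replicate 3 and the DNA methylation machinery 0.024 without HC1 replicate 3. Others kept their sign but moved by over 1.5 times, at the furthest as follows: FGF and ERK reached 0.074 without HC5 replicate 2, polarity -0.079 without HC5 replicate 4 and -0.014 without HC6 replicate 4, cholesterol synthesis 0.023 without HC1 replicate 3 and 0.11 without HC5 replicate 3, and heat shock 0.019 without HC5 replicate 4 and 0.078 without HC5 replicate 3. Single members stood further out: Aqp8, a water channel, averaged 3.30 ± 0.18 in high-balance pools and 2.87 ± 0.37 in low-balance pools, and Ldha, lactate dehydrogenase, 4.97 ± 0.17 in high-balance pools and 4.56 ± 0.38 in low-balance pools. Hspa1a, a stress-induced chaperone, differed most, by 1.45 ± 0.54 (SE; limma adjusted p = 0.888), and ranged between -0.30 and 1.87 in high-balance pools and between -3.05 and 1.83 in low-balance pools. Ccne1, a cyclin of S phase entry, had a difference of 0.22, Nf2, a Hippo activator, 0.20, Tet1, which oxidises methylcytosine, 0.16, Bax 0.16 and Spred2, an inhibitor of ERK signalling, -0.20. Of the estrogen receptor list 2 of 7 genes could be tested, and Esr2 had -0.04.

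**Figure D5:**
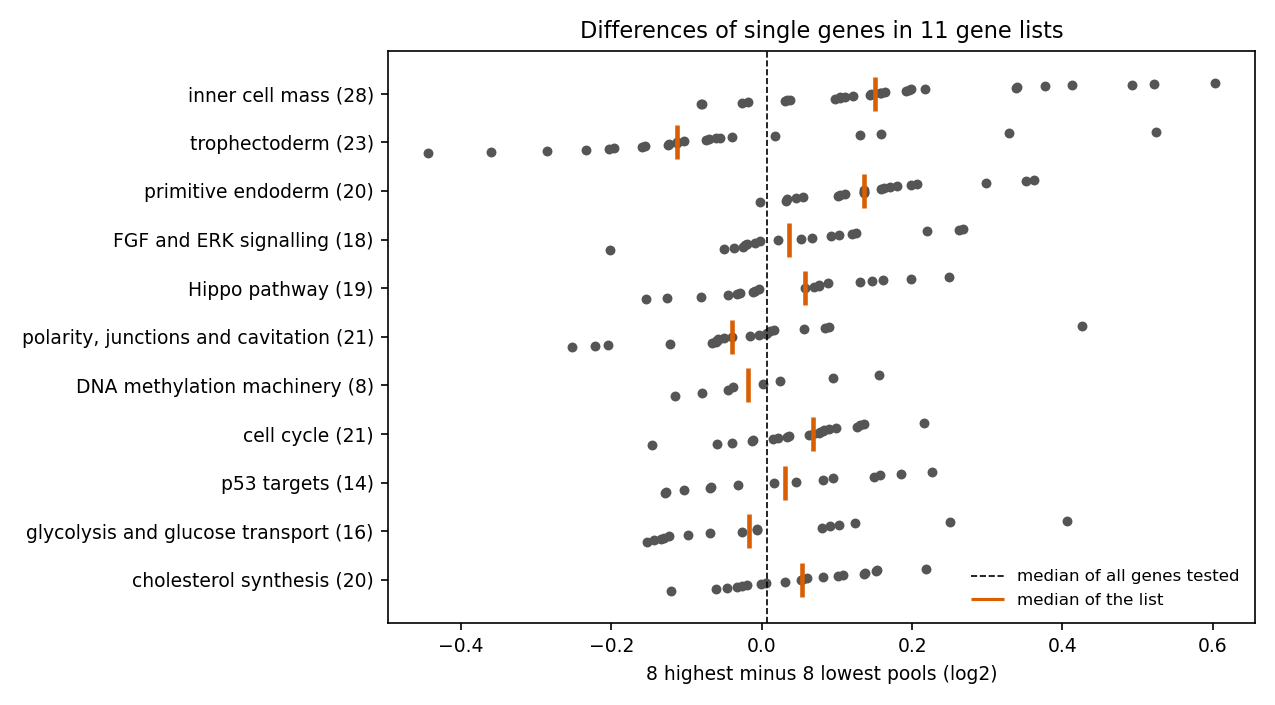
Difference between the 8 highest and 8 lowest pools (log2) of each tested gene in 11 lists, with the number of genes in brackets; orange bars are list medians and the dashed line is the median of all 18438 genes tested. The inner cell mass median lies at 0.15 and the trophectoderm median at -0.11, on either side of the line.

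Markers of cells outside the embryo and of sex were read beside these results, and their part in them was not tested. Of 14 cumulus and granulosa genes 5 could be tested, and Tnfaip6, Ptgs2, Fshr and Amh were well above background on 0 arrays. Their mean deviation from the 24-pool mean averaged -0.01 in high-balance pools, between -0.60 and 0.45, and -0.04 in low-balance pools, between -0.45 and 0.22. Of the 5, 2 had a higher mean in high-balance pools, with Inhbb at 0.18, and 3 a lower one, with Foxl2 at -0.35; the other of the 2, Has2, was well above background on only 9 arrays, and its difference is not given. Blood genes tested were 4 of 9, of which Ptprc alone had a higher mean in high-balance pools (0.40), while Hba-a1 (-0.26), Hba-a2 (-0.24) and Cd68 (-0.10) had lower ones. The blood list had a median difference of -0.17, which was -0.013 without HC5 replicate 3 and 0.15 over the 2 genes well above background on all arrays, with mean deviations between -0.29 and 0.64 in high-balance pools and between -0.54 and 1.01 in low-balance pools, and Hba-a1 was well above background on 20 arrays, Hba-a2 on 18 and Alas2 on 0. Of 6 oviduct and uterine genes 2 were tested, and Wfdc2 differed by 0.01. Foxj1 and Ltf were well above background on 0 arrays, Pax8 on 1 and Muc1 on 2. Foxl2, Ptprc and Wfdc2 were well above background on all 24 arrays, and which cells their signals come from was not tested. Of 13 oocyte genes 6 were tested, 4 with a higher mean in high-balance pools, and Padi6 had -0.20. Xist, the RNA of the inactive X chromosome, averaged 0.59 ± 0.28 in high-balance pools and 0.17 ± 0.58 in low-balance pools. The Y-linked Eif2s3y had 0.76 ± 0.42 in high-balance pools and 1.03 ± 0.35 in low-balance pools. Of the 4 Y-linked genes tested, 3 had a lower mean in high-balance pools (Eif2s3y -0.26, Uty -0.46 and Ddx3y -0.47) and Kdm5d a higher one (0.11). Only Eif2s3y was well above background on all 24 arrays, with Kdm5d on 19, Uty on 17 and Ddx3y on 16.

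The pool of highest balance stood apart in the 2-cell stage list, the genes of early genome activation. HC6 replicate 3 had a mean deviation of 5.31 in that list, the highest of 24 pools. The list's median difference of 0.45 was -0.43 without it. Of the 6 genes tested Zfp352 alone was well above background on all 24 arrays, with Tcstv3 on 11 and Zscan4a, Zscan4b, Zscan4f and Usp17le on 4 each, so these values rest mostly on signals not well above background. Usp17le, one of these genes and part of a family of close copies, was well above background in 2 high-balance pools and 0 low-balance pools. High values of the list were not confined to high-balance pools. Its mean deviation was 2.49 in HC2 replicate 1, a high-balance pool. In the low-balance pools HC6 replicate 4 and HC2 replicate 4 it was 2.05 and 1.21.

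Array quality did not separate the groups by test. The log2 of the 75th percentile signal averaged 7.02 ± 0.25 in high-balance pools and 6.83 ± 0.52 in low-balance pools (SD, n = 8 each, two-sided exact permutation test over 12870 choices, p = 0.357). The share of spots well above background was 45.7% ± 2.5 in high-balance pools and 44.8% ± 3.3 in low-balance pools (p = 0.540, same exact test). Within slides the brightness differed by 0.27, -0.21 and 0.42, and the share by -1.33, 1.89 and 2.40 percentage points.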

How the data were processed

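Linear spot intensity was read from the deposited scanner output of Agilent Feature Extraction (version 10.10.1.1, as its headers state), in which background was already subtracted while arrays were left unscaled against each other, per the file headers. A table of log2 values deposited by the authors, with 27101 probes, served as an alternative; how it was normalized is not given in the sources used here, and its column medians were 7.00 to 7.01. Flags for background, saturation (0 spots) and outliers were also read. The 75th percentile signal of an array was between 65.1 and 177, and 38.6% to 49.7% of spots were well above background; 24 arrays limit the precision.

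The log2 processed signal minus the array's 75th percentile was used, with control spots left out, and outlier spots left out of tested values. Probes well above background on at least 4 arrays and with at least 2 values per group were kept, and the brightest probe stood for a gene. The group means were compared by limma (version 3.58.1, R version 4.3.3), with adjustment over 18438 genes at 0.05. Tables used Python 3.11.15. The fit was tested on simulated data.

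The balance, the groups and the gene lists were chosen with earlier results of these data known. Named genes were, because fewer than 5 were called, the 5 of smallest p in each direction among those with a symbol (no accession, Gm, Rik or LOC name, no family of close copies) and well above background on all 16 arrays, and members of smallest p in each list: up to 4 in the lineage lists and 1 in the others, a limit set below the allowed 4 when the tables were made, with values in view, plus 12 genes always named; some genes chosen by this rule are not reported here. Alternatives changed scaling, background correction, filters, slides, covariates, group sizes, group definitions and the pools included.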

Additional observations from a re-analysis of the deposited data

Results flagged for a closer look

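Single pools lay far from the rest of their group in 13 of 122 groups examined. For independent groups chance would give about 1 in 20, or 6.1. These groups share pools, and some hold the balance or its genes, from which the high and low pools were cut. The count is therefore a description and carries no test. Of these, 4 were in HC6 replicate 3 and 4 in HC5 replicate 4. The balance of HC6 replicate 3 was -4.13, against -4.79 to -4.71 in the other HC6 pools. Among high-balance pools the same pool was lowest in Tfap2c (3.41), in Dppa1 (4.30) and in Eomes (4.5998). Among low-balance pools HC5 replicate 4 was highest in Pou5f1 (3.91) and Cdx2 (5.65) and lowest in Gata3 (6.11) and Gata6 (3.90). Among high-balance pools HC3 replicate 4 was lowest in Pdgfra (1.54) and Bax (3.86) and highest in Foxl2 (5.10). HC5 replicate 1 had the lowest mean of the inner cell mass genes among high-balance pools, 1.88, where the others lay between 2.07 and 2.21. Among low-balance pools HC5 replicate 3 was lowest in Pdgfra, at 0.62. The arrays of HC5 replicates 4 and 3 were the dimmest of the 24, with 75th percentile signals of 65.1 and 79.7. On them 39.1% and 43.8% of spots were well above background. HC6 replicate 3, HC3 replicate 4 and HC5 replicate 1 had signals of 118, 148 and 110. The part of array brightness in these extremes was not tested.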

How the results depend on the processing

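With the same groups, 0 genes were called by limma under the other alternatives, and 1 (4930413E15Rik) without the filter on dim probes. With groups drawn from Sox2, Klf2 and Esrrb minus Krt8 and Krt18, an alternative chosen after seeing the data, 1 gene was called, Krtap1-4 (adjusted p = 0.0420, difference -0.75). Against 814 genes at an unadjusted p under 0.05, there were 3071 in the trend over 24 pools, 2391 in that trend without HC6 replicate 3 (also chosen afterwards), 2170 with groups by the inner cell mass genes alone, 3093 with the Sox2, Klf2 and Esrrb groups, 1423 with groups from normexp and quantile values and 1239 with 6 pools a side, all without a called gene except as named; 437 were found within slide 3 alone. The groups shared 7 high-balance and 5 low-balance pools with those by the inner cell mass genes alone, 4 and 5 with those by the trophectoderm genes alone, and 5 and 4 with those by Pou5f1 minus Cdx2 (chosen afterwards). The inner cell mass list's median was 0.030 with groups by Pou5f1 minus Cdx2, the trophectoderm list's was 0.052 within slide 1 and -0.35 within slide 2, and the primitive endoderm list's was -0.20 within slide 2; the cause was not tested. Leaving out 1 pool at a time gave 0 called genes throughout, and medians of 0.12 to 0.18 for the inner cell mass, -0.15 to -0.055 for the trophectoderm and 0.073 to 0.21 for the primitive endoderm list. It gave brightness differences of 0.080 to 0.28 and share differences of 0.097 to 1.62 points; brightness was -0.21 within slide 2 and the share -1.33 within slide 1.

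Of 1930 values for 44 named genes under 44 alternatives, 1851 kept their direction, 79 had the other sign (13 of them on leaving out 1 pool), 0 became called and 22 genes never changed sign. Within slide 1 the sign turned for Hnf4a (-0.018), Gata6 (-0.061), Tet1 (-0.023), Klf4 (-0.042), Elf5 (0.052) and Eomes (0.096). Within slide 2 it turned for Tead4 (-0.031), Serpinh1 (-0.16), Esr2 (0.016), Wfdc2 (-0.25), Gata4 (-0.096) and Id2 (-0.044). Within slide 3 it turned for Bax (-0.00397), Esr2 (0.014), Usp17le (-0.75), Padi6 (0.0087), Uty (0.18) and Eomes (0.12). Groups by the trophectoderm genes alone turned Msx2 (-0.016), Bax (-0.049), Esr2 (0.076), Elf5 (0.021), Id2 (-0.064), Xist (-0.093) and Eif2s3y (0.00401). Groups by the inner cell mass genes alone turned Padi6 (0.039), Wfdc2 (-5.97e-05), Gata4 (-0.11) and Eomes (0.081). Groups by Pou5f1 minus Cdx2 turned Pdgfra (-0.00549), Padi6 (0.34) and Id2 (-0.036). The Sox2, Klf2 and Esrrb groups turned Esr2 (0.034), Usp17le (-0.13), Uty (0.13), Eomes (0.053), Xist (-0.00291) and Eif2s3y (0.29). The trend over 24 pools turned Esr2 (0.026), Wfdc2 (-0.018), Gata4 (-0.046) and Sox17 (-0.00287), and over 23 pools Esr2 (0.057), Usp17le (-0.20) and Eomes (0.15). With 6 pools a side Esr2 (0.048) and Eomes (0.021) turned, with 12 a side Esr2 (0.021), Usp17le (-0.36) and Eif2s3y (0.15), and with groups from normexp values Esr2 (0.0099). The mean of the kept probes turned Spred2 (0.040) and Id2 (-0.033). Wfdc2 and Id2 turned with the condition code (-0.053 and -0.067), array brightness (-0.0096 and -0.028), array weights (-0.038 and -0.084), slide row (-0.0012 and -0.016) and slide with brightness (-0.019 and -0.045). Eomes turned without the HC6 pools (0.081), and Id2 without HC6 replicate 3 and HC5 replicate 4 (-0.041). On leaving out 1 pool, Wfdc2 ranged from -0.047 to 0.051, Eomes from -0.14 to 0.056 and Id2 from -0.065 to 0.055.

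Pools were not treated as paired by replicate number. Of 60 same-numbered pairs from different codes, 25 had a correlation of deviations over 0.1. The 60 pairs had a median of -0.011, beside -0.0056 for pairs of different numbers. The number largely follows the slide: all 6 replicate 1 pools lay on slide 1, all 6 replicate 4 pools on slide 3, and 4 of the 6 replicate 2 and 4 of the 6 replicate 3 pools on slide 2. With the replicate block 0 genes were called, 645 had an unadjusted p under 0.05, the primitive endoderm list's median was 0.064, and Wfdc2 was -0.044. Of the 24 arrays, 13 correlated best with an array of their own number among the other codes, where 6 would be expected with no pairing, and same-numbered arrays mostly share a slide.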
